A study of Caenorhabditis elegans with 12 samples.

Results

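skn-1 RNAi was compared with the empty vector across 2 strains of Caenorhabditis elegans, and the genes that moved the same way in both strains are described here. Animals ate bacteria carrying a skn-1 RNAi clone or, as the control, bacteria with the empty L4440 vector, and this was done in glp-1(ts) and in wild type (WT, the N2 strain). glp-1(ts) animals carry bn18ts, a temperature-sensitive allele of the receptor through which Notch signals keep germline stem cells dividing, and their somatic tissues stay in place. All worms were grown at 25°C and frozen whole on day 1 of adulthood, which gave 4 groups of 3 biological replicates, 12 of the 12 libraries of the series. Each library pools whole animals, and those of WT also hold germline and embryo RNA. In whole animals, fewer cells of a type and less RNA per cell cannot be told apart. Each RNAi library was set against the vector library of the same strain and replicate number, 6 pairs in all, and 1 effect of RNAi common to the 6 pairs was fitted for each gene. Values are log2 CPM (reads scaled to the library total, on a log2 scale) after quantile normalization, which gives every library the same distribution. The depth of each library is unknown.

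SKN-1 is the C. elegans member of the Nrf family of transcription factors. It acts early in the embryo to specify endoderm and mesoderm, and later in the intestine and a pair of sensory neurons, where it switches on genes for glutathione synthesis, conjugation of toxic compounds and, when proteasomes are impaired, proteasome subunits. RNAi by feeding lowers the mRNA of the target gene only in part.

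Of 12595 genes tested, 174 (1.38%) were called in the common comparison at a Benjamini-Hochberg adjusted p under 0.05 (limma), 107 lower (0.850%) and 67 higher (0.532%) on skn-1 RNAi. Every one of the 174 had the same sign in both strains, which a fit of 1 effect common to both strains favours by itself. All 6 pair differences were negative for 101 of the 107 lower genes, against 3.68% of all genes tested, and all were positive for 63 of the 67 higher genes, against 3.60% of all genes (7.27% one way or the other). The genes were chosen by a fit to these same 6 pairs, so the choice itself favours pairs that agree. Lower genes had a median change of −0.65 log2 units, and 26 of them fell by more than 2-fold. Higher genes had a median change of 1.14, and 38 of them rose by more than 2-fold. The genes just inside the threshold were pas-6 (−0.36), math-34 (1.42) and ttm-4 (−0.42), and just outside were F23C8.3 (0.89), C04F12.1 (0.50) and fbxa-182 (0.81). The number of calls moved with the model. Without a trend of variance on expression, 12 genes were lower and 7 higher, and without the pairs 47 were lower and 29 higher. Leaving out 1 pair left 67 lower and 42 higher without pair 1 of glp-1(ts), 50 and 30 without pair 2, 102 and 43 without pair 3, 69 and 55 without pair 1 of WT, 68 and 46 without pair 2, and 90 and 46 without pair 3, and fits to each strain alone called 77 lower and 66 higher in glp-1(ts) and 44 lower and 27 higher in WT.

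The targeted gene was checked first. skn-1 (chromosome IV, 5651039 to 5660384, WBcel235) had 5.73, 6.60 and 6.08 log2 CPM in glp-1(ts) labelled skn-1 RNAi, against 6.07, 6.17 and 6.23 in glp-1(ts) on vector. In WT it had 4.56, 5.03 and 4.37 on skn-1 RNAi, against 6.38, 6.50 and 6.1 on vector. The groups overlapped in glp-1(ts) and did not overlap in WT. The change was −0.02 in glp-1(ts) (limma, adjusted p = 0.973) and −1.67 in WT (adjusted p = 0.00110). The difference between the strains was 1.66 (95% interval 1.21 to 2.1, unadjusted p = 6.76e-06, adjusted p = 0.0851 over all genes), and the common change of −0.85 ± 0.26 (SE) was not called. The measured skn-1 mRNA thus did not separate the glp-1(ts) libraries by their label, and directions given for glp-1(ts) rest on the labels. The skn-1 gene overlaps csn-5 and clec-178 on the opposite strand, and the strand setting of the counting is not given in the sources used here.

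Taken one strain at a time, 198 genes (1.57%) were called in glp-1(ts), 160 lower (1.27%) and 38 higher (0.302%), and 93 (0.738%) in WT, 60 lower (0.476%) and 33 higher (0.262%). These fits took the spread from the libraries of both strains. With the spread from glp-1(ts) libraries alone, 77 genes were lower and 66 higher there, a different balance from 160 and 38. Of the 60 genes called lower in WT, 58 (96.7%) also had a negative change in glp-1(ts), against 48.9% of all genes. For the 33 called higher in WT, 32 (97.0%) were positive in glp-1(ts), against 51.1% of all genes. The genes called in glp-1(ts) had the same sign in WT for 98 of 160 lower genes (61.3%, all genes 48.5%) and for 33 of 38 higher genes (86.8%, all genes 51.5%). The 2 strains do not share libraries. Over all 12595 genes the changes in the 2 strains had a Pearson r of 0.26 and a Spearman rho of 0.11, given as a description across genes, which are not independent. Of the 174 genes called in common, 73 were called in glp-1(ts), 66 in WT, 32 in both and 67 in neither strain alone. The plot of one strain against the other places the called genes at the lower left and upper right, a placement that a fit of 1 effect common to both strains favours by itself.

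**Figure D1:**
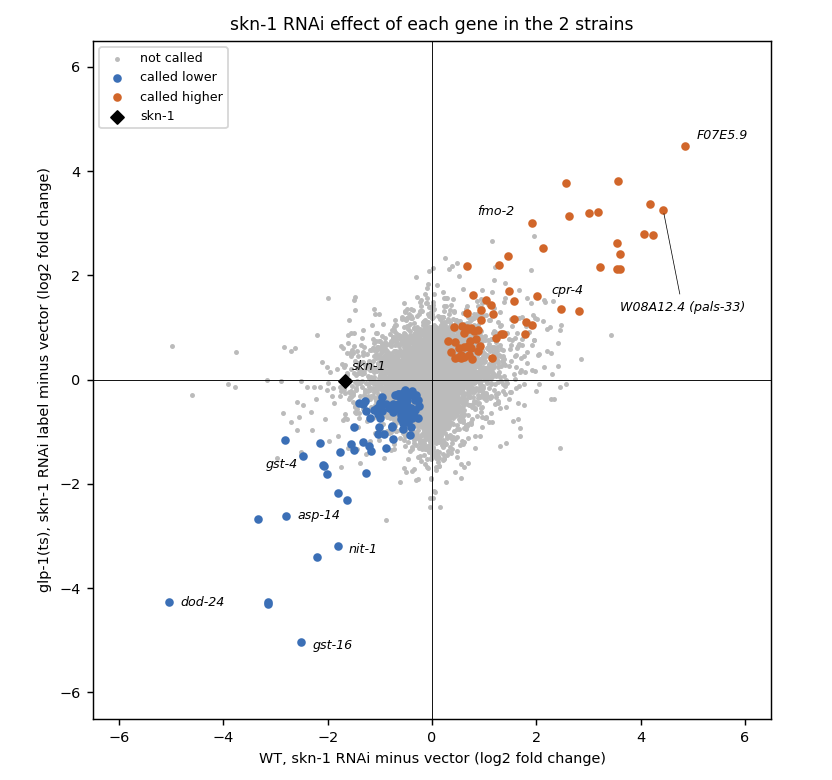
skn-1 RNAi minus vector for each gene, with the log2 fold change in glp-1(ts) on the y axis and that in WT on the x axis. Grey points were not called, blue points are the 107 genes called lower and orange points the 67 called higher in the common comparison, and the black diamond is skn-1, at −0.02 in glp-1(ts) and −1.67 in WT.

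No gene was called for a difference between the effects in the 2 strains, with 1344 genes (10.7%) at an unadjusted p under 0.05, the lowest adjusted p being that of skn-1. Without the pairs 745 genes were at that unadjusted p and 0 were called, and weights from vooma called 1. Among the 174 common genes, 28 had an unadjusted p under 0.05 for the difference. Their 95% interval of the difference, not adjusted for the number of genes, reached a median of 0.54 log2 units to either side. Larger differences could also stay uncalled over all genes, as did 1.66 for skn-1 and −2.52 for the glutathione S-transferase gene gst-16. The lack of calls thus does not show that the effects were equal.

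Known targets of SKN-1 were among the genes that fell. A list of 14 such genes was drawn from general knowledge, but with earlier results of these data known, so it is not independent of them. Of the 14, 12 were measured and all 12 of these had negative changes. 7 were called lower, against 0.850% of all genes, and the median change was −0.96, against −0.01 over all genes. The glutathione S-transferase gst-4 (chromosome IV, 10142225 to 10143099), the standard reporter of SKN-1 activity, had 4.15, 4.25 and 4.29 log2 CPM in glp-1(ts) labelled skn-1 RNAi, against 6.08, 5.58 and 5.99 on vector, and 2.19, 0.97 and 2.09 in WT on skn-1 RNAi, against 4.22, 3.45 and 3.81 on vector. In neither strain did the groups overlap. It fell by 1.86 ± 0.14 log2 units (SE), or 3.64-fold (limma, adjusted p = 0.000112, lower in 6 of 6 pairs). gst-4 overlaps dhs-12 on the same strand.

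gst-13, another glutathione S-transferase, had 4.70, 4.12 and 4.07 in glp-1(ts) labelled skn-1 RNAi, against 5.90, 5.26 and 5.79 on vector, and 2.70, 2.15 and 2.82 in WT on skn-1 RNAi, against 4.18, 3.64 and 4.35 on vector. It fell by 1.43 ± 0.10 (adjusted p = 0.000112), and the groups were apart in both strains. gst-16 had −1.92, −4.21 and −2.65 in glp-1(ts) labelled skn-1 RNAi, against 2.87, 1.36 and 2.06 on vector, and −1.31, −0.92 and −2.05 in WT on skn-1 RNAi, against 1.3, 0.63 and 1.31 on vector. It fell by 3.76 ± 0.49 (adjusted p = 0.00308), further in glp-1(ts), by 5.02, than in WT, by 2.51. That difference of −2.52 (95% interval −4.01 to −1.03) had an unadjusted p of 0.00353 and was not called over all genes. The −4.21 in glp-1(ts) was the lowest value of its library, so the sizes of the fall in glp-1(ts) and of this difference are uncertain. nit-1, a nitrilase gene with SKN-1 binding sites in its promoter, had −0.15, 0.57 and −0.66 in glp-1(ts) labelled skn-1 RNAi, against 3.39, 2.77 and 3.17 on vector, and −0.33, 0.06 and 0.23 in WT on skn-1 RNAi, against 1.45, 2.09 and 1.83 on vector. These groups were apart in both strains, and the gene fell by 2.50 ± 0.31 (adjusted p = 0.00241). nit-1 overlaps ZK1058.9 on the opposite strand.

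gcs-1, which encodes the rate-limiting enzyme of glutathione synthesis, changed less. It had 5.29, 5.46 and 5.52 in glp-1(ts) labelled skn-1 RNAi, against 5.99, 5.95 and 5.91 on vector, and 5.14, 5.17 and 4.44 in WT on skn-1 RNAi, against 5.45, 5.41 and 5.26 on vector. The fall was 0.49 ± 0.09 (adjusted p = 0.0239), and the call was lost without pair 1 (adjusted p = 0.104) or pair 2 (0.110) of glp-1(ts) and without the pairing (0.0929). The other 2 called targets were gst-38 (−0.84) and cysl-2 (−0.96). Of the 12, 2 were called without a variance trend and 4 in the WT libraries alone. The plot of 6 genes by library shows the fall of gst-4 in both strains beside skn-1 itself.

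**Figure D2:**
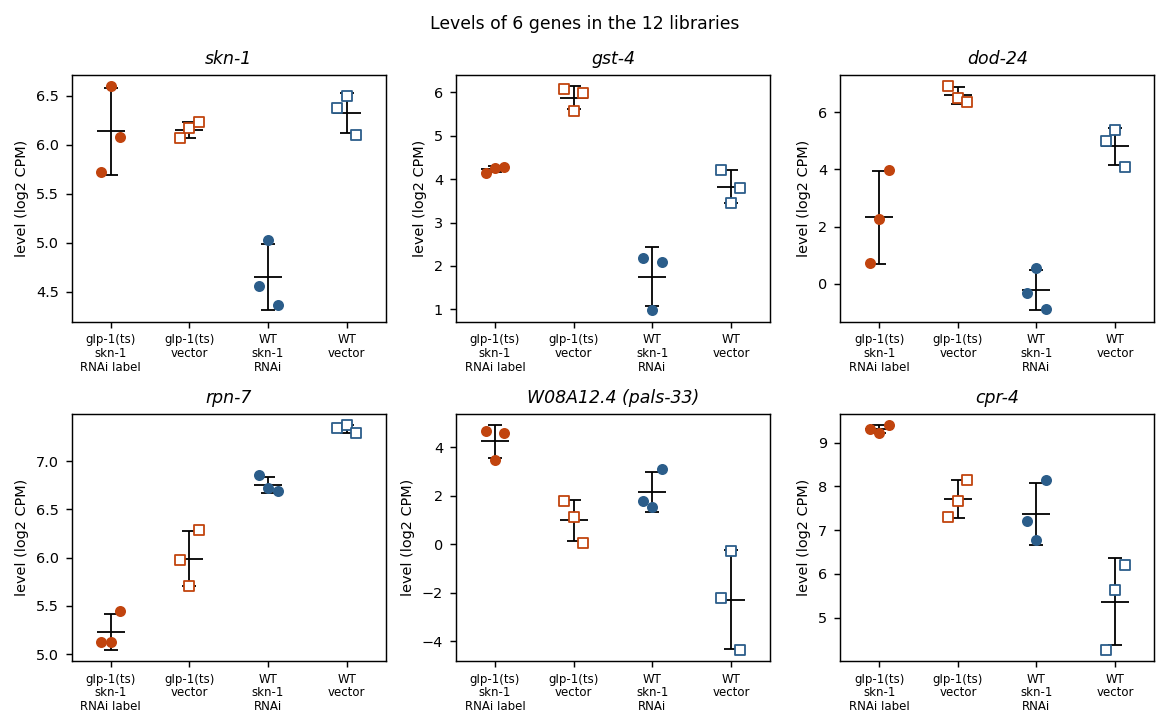
log2 CPM of 6 genes in each of the 12 libraries, with 1 panel per gene and the groups in the order glp-1(ts) labelled skn-1 RNAi, glp-1(ts) on vector, WT on skn-1 RNAi and WT on vector. Points are libraries and bars are the mean ± SD (n = 3). gst-4, dod-24 and rpn-7 were lower and W08A12.4 (pals-33) and cpr-4 higher on skn-1 RNAi in both strains, while the groups of skn-1 itself overlapped in glp-1(ts) and were apart in WT.

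Most other detoxification genes were not called, where 1.38% of all genes were. In the family of glutathione S-transferases 5 of 32 measured genes fell, gst-1 (−0.51) besides the 4 named above, and none rose. Of 55 UDP-glucuronosyltransferases, which attach sugars to toxic compounds, 5 fell, namely ugt-13 (−0.94), ugt-48 (−0.77), ugt-63 (−0.68), ugt-62 (−0.56) and ugt-44 (−0.50). The family medians were −0.17 and −0.13. Calls in the gst family fell to 3 without the pairs, and to 3 without pair 1 or pair 2 of either strain. Without the pairs 0 of the 55 ugt genes were called, and leaving out 1 pair left 3, 1 and 3 (pairs 1, 2 and 3 of glp-1(ts)) or 3, 2 and 1 (those of WT). Of 57 cytochromes P450, the xenobiotic-induced cyp-35A3 (1.37 ± 0.22, adjusted p = 0.00913) and cyp-35A2 (0.62) rose and none fell. 1 of the 57 was called without pair 1 or pair 2 of either strain, and 0 without the pairs. Among 12 genes of glutathione and thioredoxin redox, gcs-1 was the only call, and 0 of 9 superoxide dismutases, catalases and metallothioneins were called.

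Of 10 genes for enzymes that handle sulfur amino acids, in a list assembled after values were seen, 3 fell, 1 rose and 6 were not called. Among all genes 0.850% were called lower and 0.532% higher. cbl-1, a homologue of cystathionine beta-lyase, fell by 0.86 ± 0.11 (limma, adjusted p = 0.00233), and cth-2, a cystathionine gamma-lyase, by 0.48. cysl-2, a cysteine synthase homologue, fell by 0.96 (adjusted p = 0.00309). cdo-1, the cysteine dioxygenase that breaks cysteine down, rose by 0.67 (adjusted p = 0.0340), and its call was kept only without pair 1 of glp-1(ts) among the fits that left out a pair.

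The gene with the largest fall was dod-24 (chromosome IV, 12940106 to 12941354), which encodes a secreted protein with a CUB-like domain and is known as a gene downstream of DAF-16 and induced by bacterial pathogens. It had 0.73, 2.26 and 3.96 in glp-1(ts) labelled skn-1 RNAi, against 6.93, 6.48 and 6.35 on vector, and −0.33, 0.54 and −0.88 in WT on skn-1 RNAi, against 4.98, 5.36 and 4.09 on vector. The groups were apart in both strains, although the 3 libraries of glp-1(ts) labelled skn-1 RNAi were spread widely (SD 1.62). The fall was 4.65 ± 0.36, or 25.2-fold (limma, adjusted p = 0.000112). C32H11.4, which lies on the same chromosome, fell by 3.72 ± 0.34 (adjusted p = 0.000523). dod-17, also named for DAF-16, fell by 1.98 ± 0.22 (adjusted p = 0.00137, and 0.0809 without the pairs), F55G11.2 in the same gene cluster by 2.81 (adjusted p = 0.00309) and dod-19 by 0.73 (adjusted p = 0.0322).

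Also among the 15 largest falls, F01D5.2 and F01D5.3, overlapping neighbours on chromosome II that may share reads, fell by 3.01 and 1.58. Both calls held in 6 of the 6 fits that left out a pair, and that of F01D5.3 was lost without the pairs (limma, adjusted p = 0.0501). F01D5.2 was at the lowest value, −4.35, in 1 WT library on skn-1 RNAi. Other genes among these falls had less even support. The C-type lectin gene clec-3 was at the lowest value of the library in all 6 libraries labelled skn-1 RNAi, so no fold is given. These values were −4.35 in WT and −3.29, −4.21 and −4.21 in glp-1(ts). The common call of clec-3 (limma, adjusted p = 0.0106) was lost without pair 2 (0.0852) or pair 3 (0.0623) of glp-1(ts). H20E11.3 (−1.91), Y52E8A.3 (−1.97) and Y9C9A.8 (−1.87) kept their calls in 3, 2 and 0 of the 6 fits that left out a pair, and the highest adjusted p was 0.118, 0.118 and 0.187 for the 3 genes.

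asp-14, an aspartyl protease gene on the X chromosome, had 3.45, 4.42 and 4.25 in glp-1(ts) labelled skn-1 RNAi, against 6.71, 6.40 and 6.83 on vector, and 0.90, 2.08 and 2.06 in WT on skn-1 RNAi, against 4.71, 4.50 and 4.21 on vector. It fell 6.50-fold (−2.70 ± 0.21, adjusted p = 0.000112), and it was the only one of 12 asp genes called. In a list of 31 innate immune effectors 3 genes fell (dod-17, dod-19 and dod-24), where 0.850% of all genes were called lower. Another 3 rose, where 0.532% of all genes were called higher. These were the lysozyme gene lys-10 (1.92) and the saposin-like spp-18 (0.92) and spp-17 (0.52), and the list median was 0.01. None of the 3 higher genes was called without the pairs or without pair 2 or pair 3 of glp-1(ts), and 1 gene of the list was called higher without pair 1 of glp-1(ts) or pair 2 of WT.

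**Figure D3:**
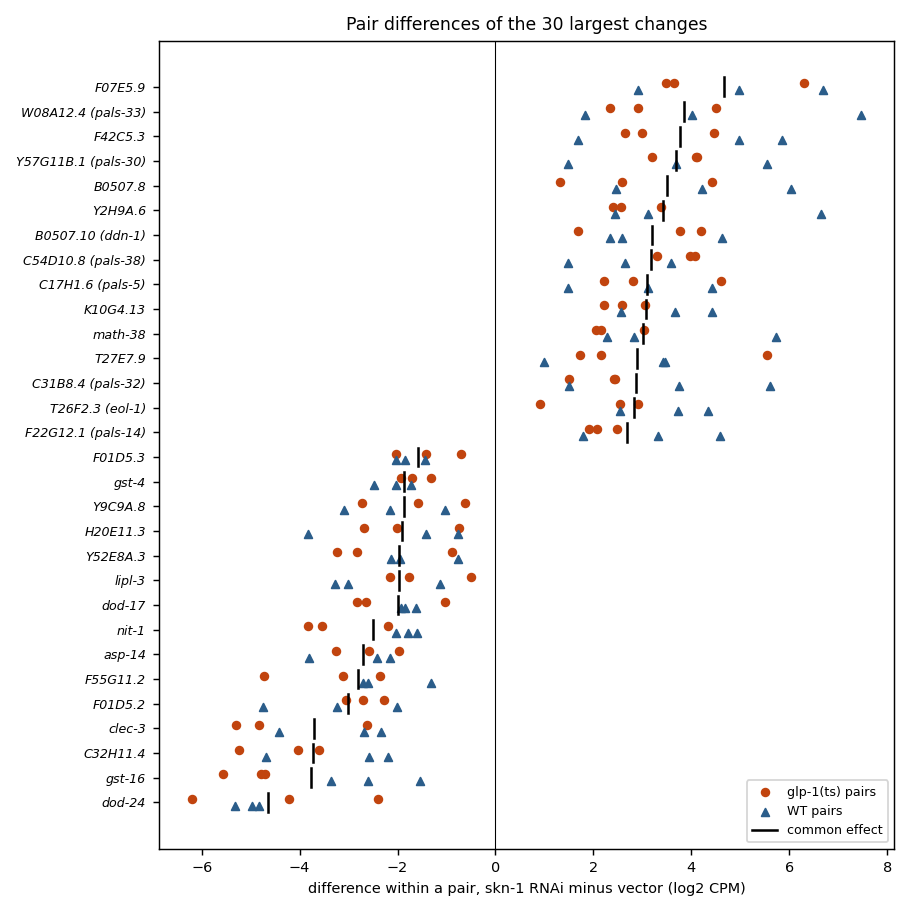
The 6 pair differences (skn-1 RNAi label minus vector, log2) of the 15 genes with the largest fall and the 15 with the largest rise among called genes whose pairs all point one way. Each point is 1 pair of libraries of a strain and replicate number, and the genes run from dod-24, whose mean is −4.65, to F07E5.9, whose mean is 4.67.

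The proteasome, the particle that degrades proteins tagged with ubiquitin, was lower in most of its subunits. Of 14 genes of its 20S core 13 fell, and of 18 genes of the 19S cap that recognises and unfolds substrates 11 fell. Among all genes 0.850% were called lower. All 32 had negative changes, as had 6511 of the 12595 genes tested. In 6 of 6 pairs 31 of the 32 were lower, against 3.68% of all genes. The median change of the 32 genes was −0.55 log2 units, or 68.2% of the vector level, against −0.01 over all genes. Each change was small beside those of dod-24 or gst-4, with a range over the 32 genes from −0.75 to −0.26.

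rpn-7, a subunit of the lid of the cap, had 5.12, 5.12 and 5.45 in glp-1(ts) labelled skn-1 RNAi, against 5.98, 5.71 and 6.28 on vector, and 6.85, 6.72 and 6.69 in WT on skn-1 RNAi, against 7.34, 7.37 and 7.30 on vector. The groups were apart in both strains, and the fall was 0.67 ± 0.07 (limma, adjusted p = 0.00120). rpn-12, another lid subunit, had 4.32, 4.16 and 4.43 in glp-1(ts) labelled skn-1 RNAi, against 5.50, 5.01 and 5.59 on vector, and 5.70, 5.50 and 5.78 in WT on skn-1 RNAi, against 6.06, 6.01 and 6.19 on vector. It had the largest fall of the 32, 0.75 ± 0.12 (adjusted p = 0.0102). In the core, pbs-6 fell by 0.69 and the alpha subunit gene pas-4 by 0.66, and among the ATPases at the base of the cap rpt-4 fell by 0.62 and rpt-6 by 0.60. rpn-6.1, a lid subunit studied in long-lived animals, changed by −0.35 ± 0.08 and was not called (adjusted p = 0.0605), although with vooma weights its change of −0.35 was (adjusted p = 0.0360). pas-5 was the one core gene not called, at −0.47 (adjusted p = 0.0817).

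The proteasome genes had a median change of −0.63 in glp-1(ts) and −0.44 in WT, and 27 of the 32 were lower in glp-1(ts) than in WT by this measure. On their own, 24 were called in glp-1(ts) and 6 in WT. For 7 of the 32 the difference between strains had an unadjusted p under 0.05, rpn-12 among them (−0.64, 95% interval −0.97 to −0.30, unadjusted p = 0.00161), and no difference was called over all genes. Without a variance trend 0 of the 32 were called, the WT libraries alone gave 3 of the core and 4 of the cap, and leaving out 1 pair left 9 to 13 of the core and 9 to 12 of the cap called. With a germline score (the mean of 23 germline markers per library) added to the pairs 11 of the core and 11 of the cap were called.

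**Figure D4:**
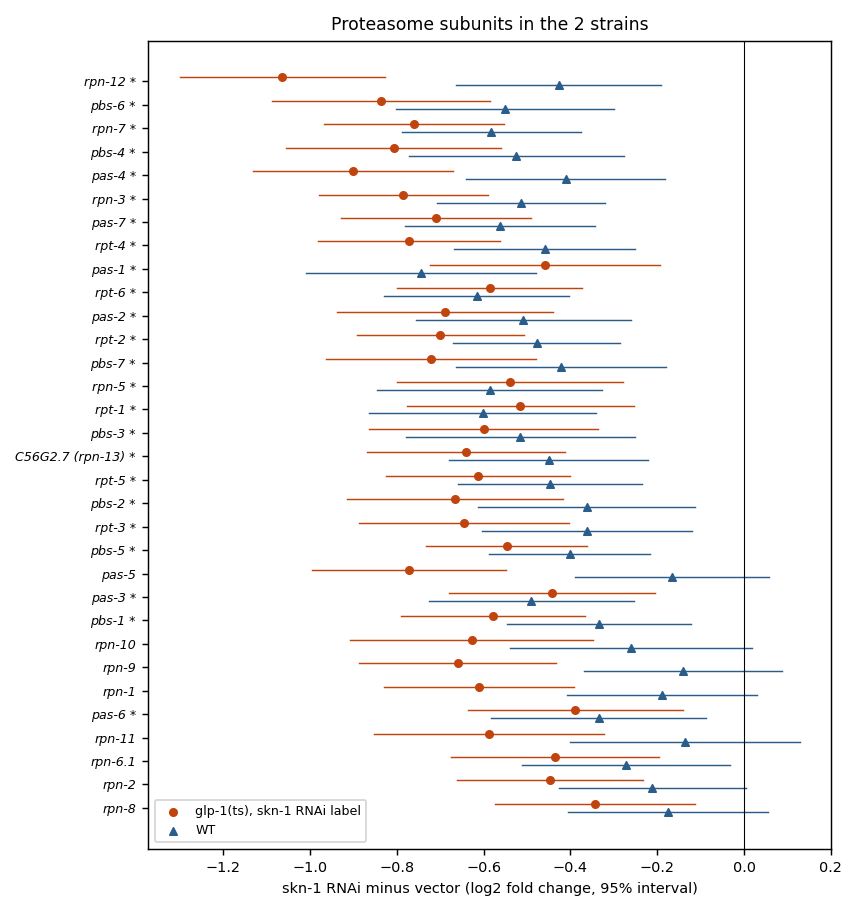
skn-1 RNAi minus vector (log2 fold change) of the 32 proteasome genes in each strain, with bars for the 95% interval of the limma fit. Stars mark the 24 genes called in the common comparison. The values lie below 0 in both strains for most genes, with a median of −0.63 in glp-1(ts) and −0.44 in WT.

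Factors that bring substrates to the proteasome moved with it in part. In a list of 17 such genes assembled after values were seen, 16 had negative changes, 5 were called lower and the median was −0.32. Among all 12595 genes 6511 had negative changes, 0.850% were called lower and the median was −0.01. cdc-48.1, an ATPase that extracts ubiquitinated proteins, fell by 0.57 ± 0.07 (limma, adjusted p = 0.00309). Its cofactor ubxn-1 fell by 0.63, the shuttle protein gene rad-23 by 0.33, and the deubiquitinase genes usp-14 and usp-5 by 0.37 and 0.32. Without the pairs 2 of the 17 were called, and leaving out 1 pair left 2 of the 17, or 3 without pair 2 of WT. In the endoplasmic reticulum, hsp-3, a homologue of the chaperone BiP, fell by 0.33 (adjusted p = 0.0342), and with cdc-48.1 it made 2 of 20 genes of the unfolded protein response of that organelle, of which 1 was called without pair 2 of WT or any 1 pair of glp-1(ts). No gene was called among 19 cytosolic heat shock genes or 9 of the mitochondrial unfolded protein response, where 1.38% of all genes were.

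Many of the largest rises were in genes of the intracellular pathogen response, a set known to be induced in C. elegans by a virus and by microsporidia, fungus-like parasites of the intestine. Its best known members are the pals genes, which are named for a shared protein signature. The lists of pals genes and of other response genes were assembled after values were seen. Of 23 pals genes measured, 6 rose, against 0.532% of all genes. In this list 12 were higher in 6 of 6 pairs, against 3.60% of all genes. The median change was 1.56, against −0.01 over all genes. Of 13 response genes listed outside the family, 11 were measured and 5 rose, against the same 0.532%, with a list median of 0.36.

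pals-33 (listed as W08A12.4) had 4.68, 3.47 and 4.58 in glp-1(ts) labelled skn-1 RNAi, against 1.77, 1.13 and 0.08 on vector, and 1.81, 1.56 and 3.12 in WT on skn-1 RNAi, against −2.21, −0.26 and −4.35 on vector. The groups were apart in both strains, with 1 WT vector library at the lowest value of the table, and the rise was 3.84 ± 0.58 (limma, adjusted p = 0.00643). pals-14 (F22G12.1), which was above the lowest value in all 12 libraries, had 6.13, 5.71 and 6.0 in glp-1(ts) labelled skn-1 RNAi, against 4.22, 3.64 and 3.51 on vector, and 2.93, 3.43 and 4.64 in WT on skn-1 RNAi, against −0.38, 1.65 and 0.06 on vector. It rose by 2.69 ± 0.31 (adjusted p = 0.00155). pals-38 (C54D10.8) rose by 3.18 and pals-32 (C31B8.4) by 2.87, with 1 and 2 WT vector libraries at the lowest value. For pals-5 (C17H1.6), whose promoter drives the common reporter of the response, and pals-30 (Y57G11B.1), all 3 WT vector libraries were at the lowest value, so no fold is given, and the pals-5 call (adjusted p = 0.0223) reached 0.115 without pair 2 of glp-1(ts).

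eol-1 (T26F2.3), a homologue of an enzyme that removes faulty caps from RNA, had 4.11, 3.23 and 3.98 in glp-1(ts) labelled skn-1 RNAi, against 1.21, 2.32 and 1.43 on vector, and 1.46, 2.48 and 2.99 in WT on skn-1 RNAi, against −2.89, −0.07 and −0.74 on vector. It rose by 2.83 ± 0.36 (adjusted p = 0.00249). zip-1, a bZIP transcription factor that drives part of the response, had 5.20, 4.40 and 5.15 in glp-1(ts) labelled skn-1 RNAi, against 4.02, 3.45 and 4.37 on vector, and 3.51, 3.43 and 3.61 in WT on skn-1 RNAi, against 2.94, 2.87 and 2.64 on vector. Its rise of 0.84 ± 0.11 was modest beside those of the genes above (adjusted p = 0.00342). The neighbours B0507.8 and B0507.10 (ddn-1) rose by 3.51 and 3.20, and math-38, of a family with MATH domains, by 3.01. rrf-2, one of the RNA-dependent RNA polymerases, was the only call among 36 genes of RNAi and small RNA machinery (0.80 ± 0.16, adjusted p = 0.0322), and it was lost without the pairs, without pair 1 or pair 2 of glp-1(ts) and without pair 2 or pair 3 of WT.

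Counts in the pals list depended on the model. Leaving out 1 pair left 5 to 7 of the 23 called, the WT libraries alone gave 1, the glp-1(ts) libraries alone gave 6, and a fit without a variance trend gave 1. Of the other response genes 5 of 11 were called in each of the 6 fits that left out a pair, and 0 without a trend. Members of the family resemble each other in sequence, and reads could be split between them in the authors' counting. Low values were frequent among the rises: 13 of the 67 higher genes were at the lowest value of a library in at least 1 library, against 4 of the 107 lower genes and 781 of all 12595.

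**Figure D5:**
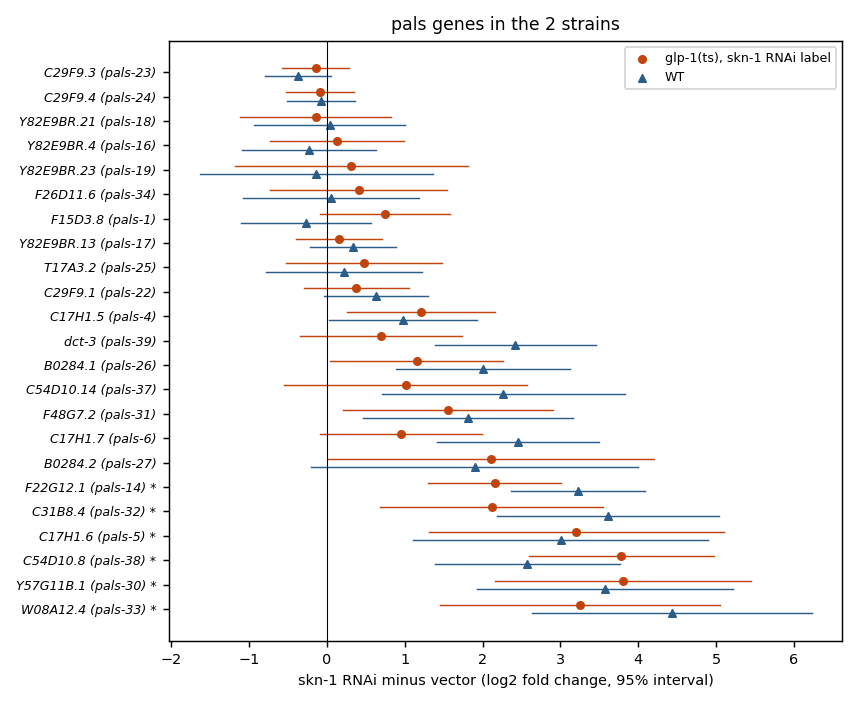
skn-1 RNAi minus vector (log2 fold change) of the 23 pals genes in each strain, with bars for the 95% interval of the limma fit. Stars mark the 6 genes called higher in the common comparison. The median of the 23 genes was 0.96 in glp-1(ts) and 1.82 in WT.

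F07E5.9, for which no function is given here, had the largest rise of all. It had 3.70, 3.72 and 4.03 in glp-1(ts) labelled skn-1 RNAi, against 0.22, 0.08 and −2.27 on vector, and 0.63, 1.96 and 2.35 in WT on skn-1 RNAi, against −4.35, −0.96 and −4.35 on vector. The groups were apart in both strains, 2 WT vector libraries were at the lowest value, and the rise was 4.67 ± 0.48 (adjusted p = 0.00111). F42C5.3 (3.77), Y2H9A.6 (3.42), K10G4.13 (3.08) and T27E7.9 (2.89) were also among the 15 largest rises. T27E7.9 was at the lowest value in 3 vector libraries, 1 of glp-1(ts) and 2 of WT, and each of the other 3 genes in 1 WT vector library. The T27E7.9 call (adjusted p = 0.0408) was kept in 1 of the 6 fits that left out a pair and reached 0.140 without pair 2 of glp-1(ts).

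Proteases of the cathepsin B type also rose. In a list assembled after values were seen, 3 of 5 cpr genes rose, against 0.532% of all genes. cpr-4 had 9.30, 9.23 and 9.40 in glp-1(ts) labelled skn-1 RNAi, against 7.30, 7.67 and 8.15 on vector, and 7.21, 6.77 and 8.15 in WT on skn-1 RNAi, against 4.27, 5.63 and 6.21 on vector. The groups were apart in both strains, and the rise was 3.50-fold (1.81 ± 0.19, limma, adjusted p = 0.00111). cpr-1, which marks the intestine, had 8.06, 8.82 and 8.63 in glp-1(ts) labelled skn-1 RNAi, against 7.39, 7.53 and 7.94 on vector, and 5.20, 6.87 and 8.13 in WT on skn-1 RNAi, against 3.94, 5.41 and 5.53 on vector. The WT groups overlapped, but each of the 6 pairs was higher, and the rise was 1.33 ± 0.20 (adjusted p = 0.00618). cpr-5 rose by 0.78, cpz-1, a cathepsin Z gene, by 0.52, and asm-3, an acid sphingomyelinase gene, by 0.81. 1 of the 5 cpr genes was called without the pairs and 0 without a variance trend.

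fmo-2, a flavin-containing monooxygenase gene, had 1.46, 4.49 and 3.15 in glp-1(ts) labelled skn-1 RNAi, against −0.02, −0.26 and 0.35 on vector, and 1.4, 1.92 and 3.06 in WT on skn-1 RNAi, against 0.89, 0.08 and −0.30 on vector. All 6 libraries labelled skn-1 RNAi exceeded all 6 on vector, and the rise was 5.50-fold (2.46 ± 0.44, adjusted p = 0.0193). Of 91 C-type lectin genes, clec-166 (1.73), clec-10 (1.14), clec-5 (1.01) and clec-218 (0.83) rose and clec-3, clec-41 (−0.85) and clec-84 (−0.63) fell, with a family median of 0.02. Without pair 2 of glp-1(ts), 2 lectin genes rose and 0 fell. Among all genes 0.532% were called higher and 0.850% lower in the common comparison.

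Several peroxisomal enzymes that shorten fatty acid chains were higher. Of 36 genes of beta-oxidation and the carnitine shuttle, 5 rose and 2 fell, with a median of 0.07. Among all genes 0.532% were called higher and 0.850% lower, with a median of −0.01. daf-22, the peroxisomal thiolase needed to make the ascaroside pheromones, had 7.37, 7.70 and 7.67 in glp-1(ts) labelled skn-1 RNAi, against 7.04, 7.13 and 6.92 on vector, and 5.59, 5.65 and 6.82 in WT on skn-1 RNAi, against 4.95, 5.19 and 5.25 on vector. It rose by 0.72 ± 0.13 (limma, adjusted p = 0.0229), and the groups were apart in both strains. maoc-1, the hydratase of the same pathway, rose by 0.52, the acyl-CoA oxidase genes acox-3 (F58F9.7) and acox-1.1 (acox-1) by 0.78 and 0.49, and ech-7, an enoyl-CoA hydratase gene, by 0.72. acox-1.5 (C48B4.1) fell by 0.65 and acdh-9, an acyl-CoA dehydrogenase gene, by 0.36. lonp-2 (Y75B8A.4), the Lon protease of the peroxisome, rose by 0.66 (adjusted p = 0.00407). Of the 36 genes, 1 was called higher without the pairs and 0 in the WT libraries alone. Leaving out pair 1, 2 or 3 of glp-1(ts) left 2, 1 and 2 higher, and leaving out pair 1 of WT left 2.

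Among 7 lysosomal lipases, lipl-3 fell and no other was called. lipl-3 had 2.62, 1.16 and 0.25 in glp-1(ts) labelled skn-1 RNAi, against 3.12, 2.92 and 2.41 on vector, and −2.86, −2.21 and −1.61 in WT on skn-1 RNAi, against 0.41, 0.80 and −0.47 on vector. The groups overlapped in glp-1(ts) and were apart in WT. The fall was 1.97 ± 0.36 (adjusted p = 0.0219), lost without pair 2 (0.0878) or pair 3 (0.0563) of glp-1(ts) and without pair 1 (0.0547) or pair 2 (0.063) of WT. lipl-3 overlaps srw-107 on the same strand. lbp-8, a lysosomal fatty acid binding protein gene, changed by −1.58 ± 0.42 and was not called (adjusted p = 0.111), although with a pseudocount of 1 CPM its change of −0.56 was (adjusted p = 0.0414). None of 18 acyl-CoA synthetases, 7 desaturases, 7 elongases or 14 genes of lipid regulation was called, where 1.38% of all genes were.

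Genes of the common response often lay beside each other. Within 10 kb of another gene called in the same direction were 23 of the 107 lower genes (21.5%) and 13 of the 67 higher genes (19.4%), against 3.06% of all genes that lay this near a called lower gene and 1.52% this near a called higher one. The longest run of lower genes was F55G11.8, F55G11.2, F55G11.4 and dod-17, on chromosome IV from 12962808 to 12978343. C17H12.8, C17H12.6 and H20E11.3 formed another on chromosome IV, from 6818703 to 6826964. Higher neighbours included pals-5 with pals-14 on chromosome I and B0507.8 with B0507.10 on chromosome V. Chromosome V held 25 of the 67 higher genes (37.3%), against 19.1% of the genes tested, and chromosome IV held 29 of the 107 lower genes (27.1%), against 2029 of the 12595 genes tested. These shares are given without a test.

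Lists for other tissues and processes held few calls. With 1.38% of all genes called, lists as short as most of these could hold 0 or 1 call at that share. None of 75 ribosomal protein genes, 168 nuclear hormone receptor genes, 22 known regulators of SKN-1, 9 genes of endomesoderm specification in the embryo or 13 of the basement membrane was called, and 1 of 99 cuticle collagens was (col-124, −0.41, kept in 2 of the 6 fits that left out a pair). Among markers of cell types, 0 of 23 germline, 0 of 9 eggshell and oocyte, 0 of 25 sperm, 0 of 9 muscle, 0 of 10 neuron, 0 of 9 hypodermis and 0 of 11 L4 and moult genes were called. The L4 and moult markers were higher on average in 5 of 6 pairs, by 0.36, −0.49 and 0.31 in glp-1(ts) and by 0.38, 0.67 and 0.27 in WT. Of these 11 markers 2 rose in WT, noah-1 (1.17) and noah-2 (1.08), genes of the apical matrix, while 0 were called in glp-1(ts). In the common comparison 2 were higher with vooma weights or without pair 2 of glp-1(ts), and 3 were in the fit to the WT libraries alone. The part of these stage markers in the other results was not tested. cpr-1 was the 1 call among 7 intestine markers, and pha-4, the FoxA factor of the pharynx and gut, the 1 call among 5 pharynx markers (−0.92, adjusted p = 0.0427), which was lost without any 1 pair of WT or pair 2 of glp-1(ts).

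The germline content of the glp-1(ts) libraries varied beside these results. The mean of 23 germline markers was 3.50, 3.50 and 3.66 log2 CPM in glp-1(ts) labelled skn-1 RNAi, against 3.45, 3.73 and 4.61 on vector, and 6.86, 7.10 and 6.61 in WT on skn-1 RNAi, against 6.84, 7.01 and 6.73 on vector. The third glp-1(ts) vector library stood 0.95 above its pair. The markers were 22 of 23 below 0 in the common change, with medians of −0.37 in glp-1(ts) and 0.01 in WT. With the germline score in the model, 105 genes were lower and 36 higher in common, and 35 instead of 198 genes were called in glp-1(ts). Without the pair 3 of glp-1(ts), 102 were lower and 43 higher in common and 47 were called in glp-1(ts).

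Called genes were also placed by their levels in the 2 strains. Averaged over libraries of both diets, 66 of the 67 higher genes (98.5%) were at higher levels in glp-1(ts) than in WT, by a median of 1.93 log2 units, and 73 of the 107 lower genes (68.2%) were, by a median of 1.37. Among all genes 54.5% were, with a median difference of 0.34. The germline markers given above were lower in glp-1(ts) than in WT, and their part in these values was not tested. The size of the common effects is not compared between the strains, since the genes were chosen by a fit of 1 effect common to both. Genes chosen in 1 strain had smaller changes in the other. The genes called lower in WT had medians of −0.48 in glp-1(ts) and −0.995 in WT, and those called lower in glp-1(ts) had medians of −0.88 in glp-1(ts) and −0.08 in WT, where the choice favours the value in the strain used.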

How the data were processed

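RNA was measured by poly(A) RNA-seq of whole animals in 12 libraries. Per the labels and the paper's methods, the authors used STAR to align 50 bp single reads to WBcel235 and featureCounts (Subread) to count reads per gene, kept genes that reached 1 CPM in 2 or more samples, and used voom in limma with quantile normalization. Versions are not given in the sources used here. The files deposited by the authors hold log2 CPM of 12595 genes and no counts, so depth is unknown and no counting interval can be given. Quantile normalization gives every library the same distribution, so a shift of all genes would not be seen. The labels start RNAi feeding at the egg and the paper's methods at the L1 larva. A deposited table of the authors' own comparisons (fold changes, moderated t, p-values, FDR) was not used.

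Groups and replicate numbers came from the sample labels. For libraries of the same number, deviations from the group means correlated across genes by 0.15, 0.34 and 0.23 in glp-1(ts) and by 0.11, 0.31 and 0.25 in WT, against at most −0.01 and 0.05 for other numbers, so numbers were used as pairs within a strain. limma 3.58.1 in R 4.3.3 was fitted to all genes with 6 pair blocks and 1 RNAi effect, or 1 effect per strain, with empirical Bayes, a trend and no weights. Adjusted p is Benjamini-Hochberg over all genes, and calls used 0.05. Fold changes are on the log2 CPM scale as deposited. In the paired fits, p-values measure how the differences within pairs vary between these pairs, with the spread moderated across genes by empirical Bayes. The genes named are skn-1, the 15 largest calls per direction whose 6 pairs agree in sign, called members of the lists, and gst-4, nit-1, gcs-1, rpn-6.1, lipl-3 and lbp-8. Other called genes in the text were chosen after their values were seen. The members and the 40 lists were chosen with earlier results of these data known, and 8 more lists were added after values were seen. Counts of a list are of its measured genes. Coordinates and current symbols are from Ensembl release 115. The fit was tested on simulated data. Alternatives covered the pairs, vooma weights, the trend, a minimum mean level of 1 or 4 CPM, a pseudocount, centring on the median or on reference genes, a germline score and leaving out each pair. Fits to each strain alone were added after seeing the data.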

Additional observations from a re-analysis of the deposited data

Results flagged for a closer look

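The effect of skn-1 RNAi on skn-1 itself differed between the strains. skn-1 mRNA changed by −0.02 log2 units in glp-1(ts) and by −1.67 in WT, a difference of 1.66 (95% interval 1.21 to 2.1, n = 3 pairs per strain, limma, unadjusted p = 6.76e-06, adjusted p = 0.0851 over all genes). The glp-1(ts) pairs stood at −0.34, 0.44 and −0.15, and the 3 WT pairs fell by 1.81, 1.47 and 1.73. The adjusted p was 0.020 with vooma weights and 0.0286 with a pseudocount of 1 CPM. The cause was not tested.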

How the results depend on the processing

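No common call changed sign under any setting tried, while the number of calls varied. Without the replicate pairing, 47 genes were lower and 29 higher in common, 45 were called in glp-1(ts) and 22 in WT. Without a trend the counts were 12 lower and 7 higher in common and 0 in either strain, and skn-1 in WT (−1.67) had an adjusted p of 0.0766. With vooma weights 163 were lower and 134 higher, 328 were called in glp-1(ts), 1 gene was called for the difference between strains, 88.5% of WT calls had the same sign in glp-1(ts), and skn-1 (difference 1.65) was past the threshold. With a pseudocount of 1 CPM 2 genes were called for that difference, skn-1 (1.62) among them. A filter at 4 CPM left 42 genes higher, centring on reference genes left 118 called in glp-1(ts), and a germline score beside the pairing left 36 higher and 35 in glp-1(ts), with 88.0% of WT calls of the same sign there. The WT libraries alone gave 44 lower and 27 higher, with skn-1 at −1.67. Leaving out each pair in turn gave 50 to 102 genes lower and 30 to 55 higher in common, 47 to 297 called in glp-1(ts), 44 to 84 in WT and 0 to 1 for the difference. The share of WT calls with the same sign in glp-1(ts) was then 86.96% to 100%. The skn-1 change was −1.1 to −0.65 in common, −0.24 to 0.14 in glp-1(ts), −1.77 to −1.6 in WT and 1.43 to 1.82 for the difference. Of the 174 calls, 46 lower and 25 higher held in every fit that left out a pair, and 10 held in every one of 10 other settings, namely dod-24, C32H11.4, F01D5.2, asp-14, gst-4, gst-13, F56F10.1, Y69A2AR.12, clec-10 and F07E5.9. The share of lower among all calls was 61.5%, against 74.5% with the germline score. The causes of these changes were not tested. Fits that leave out a pair or a strain also hold fewer libraries. Depth is unknown, and 3 libraries per group limit the precision of every value.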

Other observations

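Some called genes belong to none of the lists above and are named after their values were seen. dsc-4, a homologue of the microsomal triglyceride transfer protein that loads lipoproteins, changed by −0.64 (limma, adjusted p = 0.0494), and ifc-2, an intermediate filament gene of the intestine, by −0.48 (adjusted p = 0.0391). vha-12, a subunit gene of the proton pump of lysosomes and other compartments, changed by −0.30 (adjusted p = 0.0427), and aqp-11, an aquaporin gene, by −0.49 (adjusted p = 0.0237). F56F10.1 changed by −0.96 (adjusted p = 0.00111). Among genes that rose, nuc-1, a DNase II gene that digests DNA of dead cells and food, changed by 0.45 (adjusted p = 0.0494), cwn-1, a Wnt ligand gene, by 0.73 (adjusted p = 0.0494), fbn-1, a fibrillin homologue of the apical matrix, by 0.58 (adjusted p = 0.0283), and nas-11, an astacin protease gene, by 0.42 (adjusted p = 0.0131). Few of these calls were stable. Of the 6 fits that left out a pair, F56F10.1 was called in 6, nas-11 in 4, aqp-11 and fbn-1 in 2, dsc-4, ifc-2, vha-12 and nuc-1 in 1, and cwn-1 in 0. All changes have the same sign in both strains, which the choice by a common effect favours.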
